A study of Mus musculus with 4 samples.

Results

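The genes described here are 10 genes of the inflammasome and of the IL-1 family: the sensors Nlrp3, Aim2 and Nlrp6, the adaptor Pycard, the protease Casp1, the cytokines Il1b and Il18, the cytokine inhibitors Il1rn and Il18bp, and the pore-forming protein Gsdmd. They were chosen by symbol, as 10 of the 24346 gene symbols in the expression tables, and all 10 were above 0 in every library. Liver RNA was sequenced from male ob/ob mice, which lack leptin and become obese, fed from 6 weeks of age for 4 weeks. The 4 diets were a chow diet (CD), the same diet with 0.01% 7-ketocholesterol (CD+7KC), a high-fat and high-sucrose western-type diet (WD), and WD with 0.01% 7-ketocholesterol (WD+7KC). Every diet, the control diets included, held 1% cholesterol, and 7-ketocholesterol (7KC) is an oxidized form of cholesterol. There was 1 library per diet, and the sources used here do not say whether a library held the RNA of 1 mouse or of several. No p-value can therefore be given, and each comparison below is a comparison of 2 libraries.

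An inflammasome is a protein platform that forms in the cytosol when a sensor such as NLRP3 or AIM2 meets a danger signal and gathers the adaptor ASC (Pycard), which activates caspase-1. Caspase-1 cuts the inactive precursors of IL-1β and IL-18 into their secreted forms and cuts gasdermin D, whose released fragment opens pores in the plasma membrane. The IL-1 receptor antagonist (Il1rn) and the IL-18 binding protein (Il18bp) restrain the 2 cytokines outside the cell. In the liver, Kupffer cells, the resident macrophages, are a main site of this pathway, and its activity is set largely at the protein level, which mRNA values do not show.

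The values are FPKM, fragments scaled to transcript length and to mapped fragments, as deposited. Between 14856 and 15246 symbols were above 0 in a library, and the summed FPKM was lowest in WD+7KC at 602059 against 696062 to 715605 in the other 3 libraries. The low FPKM values were spaced as whole reads, which gave an estimated depth of 9420000 to 12125000 fragments per library and an estimated read number behind each value. The 95% intervals below come from those read numbers, cover counting error only, and say nothing of the variation between mice. There are 40 of them over the 4 comparisons, and they were not adjusted for their number. Alb was the gene with the highest FPKM in every library, and all 7 hepatocyte markers were above 0 in every library, as the liver label requires.

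The member genes fell into a high and a low set. Nlrp6, Il18, Il18bp, Gsdmd and Il1rn were at 3 FPKM or more in every library, and Nlrp3, Aim2, Pycard, Casp1 and Il1b were below 3 FPKM in every library. In CD the order was headed by Nlrp6 at 16.0 FPKM, followed by Gsdmd at 11.2, Il18 at 11.0, Il18bp at 7.44 and Il1rn at 5.09 FPKM. In WD+7KC it was headed by Il18bp at 26.9 FPKM, followed by Gsdmd at 10.5, Il18 at 9.09, Nlrp6 at 8.47 and Il1rn at 7.99 FPKM. The counting intervals of Gsdmd and Il18 overlapped in all 4 libraries, and in WD+7KC those of Gsdmd, Il18, Nlrp6 and Il1rn overlapped from each to the next, while Il18bp stood apart from Gsdmd. At the low end the neighbours Pycard, Aim2 and Nlrp3 overlapped in each of the 4 libraries. Overlap does not by itself leave an order unresolved, and intervals for their ratios within a library were not computed. WD+7KC was the library with the highest value for 7 genes (Nlrp3, Aim2, Pycard, Casp1, Il1b, Il1rn and Il18bp) and the lowest for the other 3 (Nlrp6, Il18 and Gsdmd). The share of all genes with their highest or lowest value in WD+7KC was not computed. Some of these places were within counting error. For Il1b and Il18 the counting intervals of all 4 comparisons below included 1, and for Gsdmd that against CD+7KC did (0.921 times, 0.753 to 1.12). The highest places of Aim2, Pycard and Casp1 were not resolved either. The interval of WD+7KC included 1 for Aim2 against WD (0.976 to 3.97) and CD+7KC (0.840 to 2.85). It also did for Pycard against WD (0.810 to 3.11) and for Casp1 against CD+7KC (0.859 to 2.50).

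**Figure D1:**
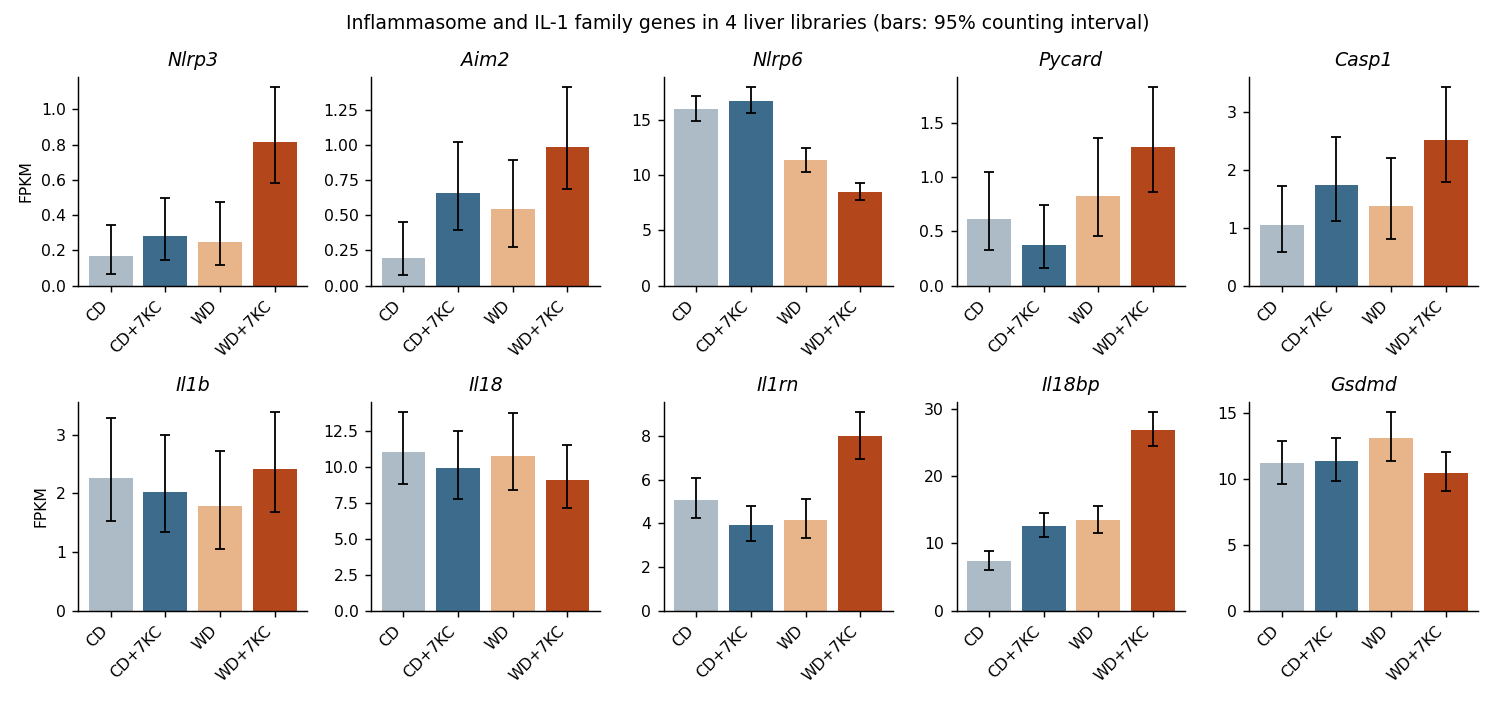
FPKM of each of the 10 genes (vertical axis, own scale for each gene) in the CD, CD+7KC, WD and WD+7KC libraries (horizontal axis), with bars for the value and whiskers for the 95% Poisson counting interval. Il18bp is at 7.44 FPKM in CD and 26.9 in WD+7KC, Nlrp6 is lowest in WD+7KC at 8.47, and Il18 and Gsdmd stay within a narrow band.

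The promoters of 4 members are shown because these genes cover the main patterns in the data: Il18bp was higher with both 7KC and WD, Nlrp3 differed most between WD+7KC and WD, Nlrp6 was lower in both WD libraries, and Il1b is a cytokine gene with like values in the 4 libraries. The sequences are from RefSeq on GRCm38.p6 and run from 250 bases before to 50 bases after the annotated start, 5′ to 3′ on the strand of the gene, with matches to the searched motifs in capitals. The window of Il18bp is chr7:102018183-102018482 on the minus strand, that of Nlrp3 chr11:59541319-59541618 on the plus strand, that of Nlrp6 chr7:140920652-140920951 on the plus strand and that of Il1b chr2:129371090-129371389 on the minus strand.
Il18bp: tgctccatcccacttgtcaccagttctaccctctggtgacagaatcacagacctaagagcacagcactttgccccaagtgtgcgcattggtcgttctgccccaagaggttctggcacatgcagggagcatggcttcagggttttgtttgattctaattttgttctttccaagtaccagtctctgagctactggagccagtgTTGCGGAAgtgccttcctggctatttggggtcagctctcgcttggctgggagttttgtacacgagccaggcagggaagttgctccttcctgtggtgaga
Nlrp3: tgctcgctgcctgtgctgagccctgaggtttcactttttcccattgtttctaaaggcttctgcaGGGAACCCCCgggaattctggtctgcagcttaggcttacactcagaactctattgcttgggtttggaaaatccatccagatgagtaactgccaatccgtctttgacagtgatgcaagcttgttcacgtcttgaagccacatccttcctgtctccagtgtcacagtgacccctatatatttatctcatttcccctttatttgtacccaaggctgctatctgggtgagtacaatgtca
Nlrp6: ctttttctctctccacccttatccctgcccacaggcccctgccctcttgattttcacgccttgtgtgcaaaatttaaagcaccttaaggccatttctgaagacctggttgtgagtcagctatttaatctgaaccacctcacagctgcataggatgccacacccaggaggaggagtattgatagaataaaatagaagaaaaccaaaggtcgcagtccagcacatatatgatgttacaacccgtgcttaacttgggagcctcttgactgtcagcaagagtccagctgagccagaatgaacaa
Il1b: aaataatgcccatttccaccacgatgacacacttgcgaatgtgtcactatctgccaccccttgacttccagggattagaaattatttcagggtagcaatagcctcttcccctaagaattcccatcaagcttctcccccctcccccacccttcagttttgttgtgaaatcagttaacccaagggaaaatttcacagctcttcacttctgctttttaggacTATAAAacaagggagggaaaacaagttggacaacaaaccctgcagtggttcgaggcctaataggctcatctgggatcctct

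The capitals mark a C/EBP core (TTGCNNAA) from base -49 of Il18bp, an NF-kB consensus match from base -186 of Nlrp3, and a TATA box (TATAAA) from base -31 of Il1b, while the Nlrp6 window held no match to a searched motif. Both strands of the 12 promoters of 9 members were searched, and the promoter of Gsdmd was not analysed here. The C/EBP core was also in Pycard from base -142, the PU.1 letters GAGGAAGT were in Aim2 from base -113 and Pycard from base -44, and the TATA letters were also in Il18 and in a promoter of Il1rn. Of all 32851 promoters of this length, 10.8% held the C/EBP letters, 8.46% the NF-kB consensus, 3.20% the PU.1 letters and 13.6% the TATA letters. The gamma-activated letters TTCNNNGAA, in 8.30% of all promoters, and the interferon-stimulated core GAAANNGAAA, in 3.44%, were in none of the member windows. A match is a description of the letters and not evidence of a bound site.

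The first question was which member genes differed when 7KC was added to CD. A log2 ratio above 1 or below -1, with 0.1 FPKM added to each value, is called past the fold. Aim2 was the 1 member past the fold, in a comparison in which 6.75% of all genes were, and the median log2 ratio of the 10 members was 0.04 against -0.001 for all genes. When 7KC was added to WD, Nlrp3 was the 1 member past the fold against 9.0% of all genes, and the median of the members was 0.67 against 0.002 for all genes. In 7 of the 10 members the WD+7KC value was higher than the WD value. The share of all genes that were higher was not computed, and their median log2 ratio was 0.002. Of the 7, Aim2, Pycard and Il1b had counting intervals that include 1. Il18bp, at 2.01 times the WD value before 0.1 was added, fell just short of the limit for being past the fold. Scaling the libraries to equal sums of FPKM moved the median of all genes to 0.21 and put 4 members past the fold in this comparison (Nlrp3, Casp1, Il1rn and Il18bp), since WD+7KC had the lowest sum. A count of 1 in 10 is close to the 2 background shares.

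The diet itself was the next question. Between WD and CD, Aim2 was again the 1 member past the fold, against 9.69% of all genes, at 2.79 times with a 95% counting interval of 0.893 to 8.08 that includes 1. The member median was 0.30, and it was -0.04 when genes under 1 FPKM in both libraries were left out. Between WD+7KC and CD+7KC, 4 members were past the fold (Nlrp3, Pycard, Il1rn and Il18bp) against 12.6% of all genes, with a member median of 0.51. No member was below -1 in any of the 4 comparisons. The 4 comparisons share libraries, so their values are given side by side and not as independent results.

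**Figure D2:**
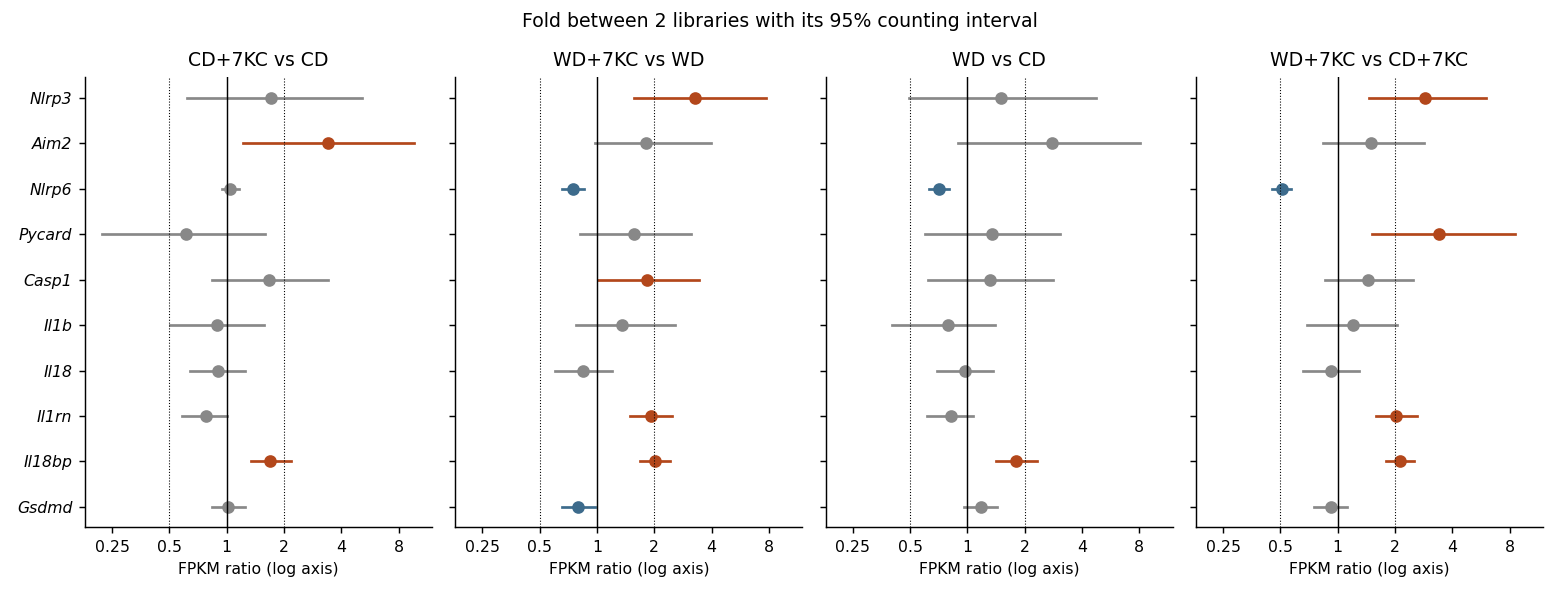
Ratio of FPKM between 2 libraries for each member (points, logarithmic horizontal axis) with its 95% counting interval (lines), in the 4 comparisons. Red marks an interval above 1, blue an interval below 1 and grey an interval that includes 1, and dotted lines mark ratios of 0.5 and 2. Il18bp is red in all 4 panels, and Nlrp6 is blue in 3 of them.

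Nlrp3 (chr11:59541568-59566956, plus strand, GRCm38) encodes the sensor that responds to many kinds of cell damage, cholesterol crystals among them. It was at 0.166 (CD), 0.284 (CD+7KC), 0.249 (WD) and 0.816 FPKM (WD+7KC), an estimated 7, 12, 9 and 38 reads. The WD+7KC library stood above the other 3, and Nlrp3 had the lowest value of the 10 members in each library, although its interval overlapped that of the next gene in all 4. The WD+7KC value was 3.28 times the WD value (95% counting interval 1.56 to 7.71) and 2.87 times the CD+7KC value (1.47 to 6.04). In CD+7KC it was 1.71 times the CD value, with an interval of 0.620 to 5.12 that includes 1.

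Aim2 (chr1:173350879-173466040, plus strand) encodes a sensor of DNA in the cytosol. It was at 0.194 FPKM on CD, 0.659 on CD+7KC, 0.543 on WD and 0.985 on WD+7KC, an estimated 6, 19, 13 and 32 reads, so that the CD library was the lowest of the 4. The CD+7KC value was 3.39 times the CD value (1.21 to 9.65), while the WD+7KC value was 1.81 times the WD value with an interval of 0.976 to 3.97. With so few reads in CD, the size of the Aim2 ratios was poorly fixed.

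Nlrp6 (chr7:140920902-140929192, plus strand) encodes a sensor best known from the intestinal epithelium, and was the most abundant sensor among the members. It was at 16.0 FPKM for CD, 16.7 for CD+7KC, 11.3 for WD and 8.47 for WD+7KC, an estimated 741, 778, 451 and 435 reads. Both WD libraries were lower than both CD libraries. The WD value was 0.708 times the CD value (0.628 to 0.796), and the WD+7KC value was 0.507 times the CD+7KC value (0.450 to 0.571). Adding 7KC went with a ratio of 0.748 under WD (0.655 to 0.857) and of 1.04 under CD (0.944 to 1.16). With libraries scaled to equal sums of FPKM, the ratio under WD was 0.870 (0.761 to 0.995), an interval that excludes 1 only at its edge. Of the 5 intestinal markers, Cdx2 was listed at 0 in all 4 libraries and Muc2 in all but WD+7KC, while Fabp2, which was the most abundant of them, was between 208 and 289 FPKM and Lgals4 between 5.30 and 7.36 FPKM.

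Pycard (chr7:127989708-127993867, minus strand) encodes ASC, the adaptor that joins sensors to caspase-1. It was at 0.611 (CD), 0.375 (CD+7KC), 0.820 (WD) and 1.28 FPKM (WD+7KC), an estimated 13, 8, 15 and 30 reads. The WD+7KC library was 3.40 times the CD+7KC library (1.52 to 8.58), and both 7KC additions had intervals that include 1, at 0.613 (0.220 to 1.60) under CD and 1.56 (0.810 to 3.11) under WD. Its exons overlap an annotated gene on the opposite strand by 485 bases.

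Casp1 (chr9:5298517-5307265, plus strand) encodes caspase-1, the protease of the inflammasome. It was at 1.04 FPKM on CD, 1.73 on CD+7KC, 1.37 on WD and 2.51 on WD+7KC, an estimated 15, 25, 17 and 40 reads. Each 7KC library was higher than its control, by 1.66 times under CD (0.842 to 3.39) and 1.83 times under WD (1.01 to 3.44), and only the interval under WD excludes 1, at its edge.

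Il1b (chr2:129364570-129371139, minus strand) encodes IL-1β. It was at 2.27 FPKM for CD, 2.02 for CD+7KC, 1.79 for WD and 2.42 for WD+7KC, an estimated 29, 26, 19 and 34 reads. The highest value was 1.35 times the lowest, and the intervals of all 4 comparisons included 1, as for the 1.35 times between WD+7KC and WD (0.771 to 2.58). Ratios in either direction remain within these intervals.

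Il18 (chr9:50554827-50581840, plus strand) encodes IL-18, a cytokine that drives interferon-γ production by lymphocytes. It was at 11.0 (CD), 9.88 (CD+7KC), 10.7 (WD) and 9.09 FPKM (WD+7KC), an estimated 80, 72, 67 and 73 reads. Its highest value was 1.21 times its lowest, the smallest such ratio among the 10 members. Both 7KC libraries were slightly below their controls, at 0.897 times under CD (0.643 to 1.25) and 0.847 times under WD (0.599 to 1.20), and both intervals include 1.

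Il1rn (chr2:24336853-24351494, plus strand) encodes the IL-1 receptor antagonist, which occupies the IL-1 receptor without signalling. It was at 5.09 FPKM on CD, 3.94 on CD+7KC, 4.16 on WD and 7.99 on WD+7KC, an estimated 127, 98, 89 and 220 reads if the longest of its 3 mRNAs is taken. WD+7KC was the highest, while CD+7KC was below CD. The WD+7KC value was 1.92 times the WD value (1.49 to 2.49, and 1.11 to 3.30 if the shortest mRNA is taken), and the CD+7KC value was 0.774 times the CD value (0.584 to 1.01).

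Il18bp (chr7:102014885-102018690, minus strand) encodes the soluble binding protein that captures IL-18. It was at 7.44 FPKM for CD, 12.6 for CD+7KC, 13.4 for WD and 26.9 for WD+7KC, an estimated 113, 194, 176 and 455 reads. Its value was the fourth among the members in CD and the first in WD and WD+7KC, the first place being resolved from Gsdmd by the counting intervals in WD+7KC and not in WD. Among all genes above 0 it was at the 63.3 percentile in CD and the 84.6 percentile in WD+7KC. Adding 7KC went with 1.70 times the value under CD (1.35 to 2.18) and 2.01 times under WD (1.68 to 2.40). WD went with 1.80 times the value without 7KC (1.42 to 2.31) and 2.13 times with 7KC (1.79 to 2.53). Il18bp was the member whose counting interval lay above 1 in all 4 comparisons. Its exons share 80 bases with Numa1 on the opposite strand, which was between 6.02 and 7.62 FPKM, and whether reads were counted by strand is not given in the sources used here.

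Gsdmd (chr15:75862327-75867408, plus strand) encodes gasdermin D, the pore-forming protein cut by caspase-1. It was at 11.2 (CD), 11.4 (CD+7KC), 13.2 (WD) and 10.5 FPKM (WD+7KC), an estimated 195, 200, 197 and 203 reads. The WD library was the highest, and the 4 values lay within 1.25 times of each other. The WD+7KC value was 0.797 times the WD value (0.655 to 0.979), and this interval included 1 when the libraries were scaled to equal sums of FPKM (0.926 times, 0.761 to 1.14).

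Over the 10 members, the counting interval lay above 1 for 2 genes (Aim2 and Il18bp) and included 1 for 8 between CD+7KC and CD, where the interval excluded 1 for 23.0% of all genes. For WD+7KC against WD it lay above 1 for 4 genes (Nlrp3, Casp1, Il1rn and Il18bp) and below 1 for 2 (Nlrp6 and Gsdmd), against 29.8% of all genes in either direction. Between WD and CD it lay above 1 for Il18bp and below 1 for Nlrp6, against 34.6% of all genes. Between WD+7KC and CD+7KC it lay above 1 for 4 genes (Nlrp3, Pycard, Il1rn and Il18bp) and below 1 for Nlrp6, against 39.9% of all genes. With these shares over all genes, an interval that excludes 1 between 2 libraries is common and by itself does not set a member apart. Under equal sums of FPKM, 5 genes were above 1 and 1 below between WD+7KC and WD, Aim2 being the gene added at 2.11 times (1.13 to 4.61).

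Each cytokine was then set against its inhibitor. The FPKM of Il18bp was 0.675 times that of Il18 on CD, 1.28 times on CD+7KC, 1.25 times on WD and 2.96 times on WD+7KC. The inhibitor value was thus the lower of the pair in CD and the higher in the other 3 libraries. The counting intervals of Il18bp and Il18 were apart in WD+7KC and overlapped in CD, CD+7KC and WD. In CD the overlap was slight, with Il18bp reaching up to 8.90 FPKM and Il18 down to 8.78. Overlap of such intervals does not by itself leave an order unresolved, and no interval for the ratio within a library was computed. The ratio in WD+7KC was 4.38 times that in CD (3.0 to 6.40), 2.37 times that in WD (1.63 to 3.44) and 2.32 times that in CD+7KC (1.60 to 3.34). The Il1rn to Il1b ratio was 2.24 on CD, 1.95 on CD+7KC, 2.33 on WD and 3.31 on WD+7KC. All of its intervals against WD+7KC included 1, as between WD+7KC and CD (1.47 times, 0.752 to 2.89). These intervals take the shortest mRNA of Il1rn, which gives fewer reads than the longest. The pair showed no difference that these read numbers could resolve.

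**Figure D3:**
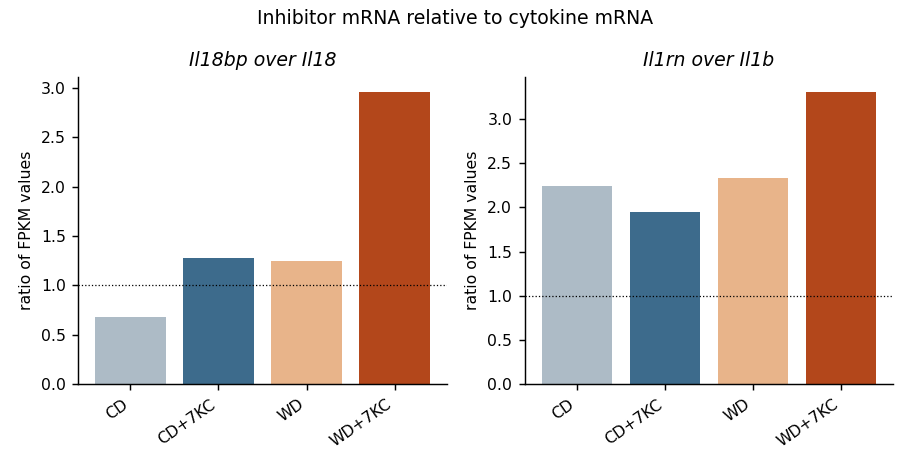
Ratio of the inhibitor's FPKM to the cytokine's FPKM (vertical axis, bars from 0) in the CD, CD+7KC, WD and WD+7KC libraries, for Il18bp over Il18 (left) and Il1rn over Il1b (right), with a dotted line at a ratio of 1. The Il18bp to Il18 ratio is 0.675 in CD and 2.96 in WD+7KC, and the Il1rn to Il1b ratio lies between 1.95 and 3.31.

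Whether 7KC went with a different ratio under WD than under CD was computed for each member as a ratio of the 2 ratios. The interval excluded 1 for Nlrp6 and Il1rn. For Nlrp6 the ratio under WD was 0.716 times that under CD (0.607 to 0.846), and for Il1rn it was 2.48 times that under CD (1.73 to 3.55, from the longest mRNA). For Il18bp it was 1.18 (0.884 to 1.58), for Nlrp3 1.92 (0.587 to 6.29), for Pycard 2.54 (0.862 to 7.46) and for Aim2 0.535 (0.172 to 1.67), intervals that include 1. The larger ratio of Nlrp3 under WD than under CD was therefore not a resolved difference between the diets.

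The member values were set beside markers of the liver's cell types, because several members are known mainly from macrophages. In bulk tissue, more or fewer cells of a type and more or less RNA per cell cannot be told apart. The sum of 14 macrophage and Kupffer cell markers was 303 FPKM for CD, 447 for CD+7KC, 522 for WD and 964 for WD+7KC, with none of the 14 at 0. All 14 were higher in CD+7KC than in CD and in WD+7KC than in WD, with median log2 ratios of 0.59 and 0.91. The macrophage marker Adgre1, which encodes F4/80, was at 2.92 (CD), 5.41 (CD+7KC), 5.03 (WD) and 14.9 FPKM (WD+7KC). The Kupffer cell marker Clec4f was at 20.9 FPKM on CD, 40.2 on CD+7KC, 29.2 on WD and 64.5 on WD+7KC. The part of these markers in the member values was not tested.

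Per 1000 FPKM of the summed macrophage markers, Il18bp was 24.6 for CD, 28.2 for CD+7KC, 25.7 for WD and 27.9 for WD+7KC, a range of 1.15 times against 3.62 times for its FPKM. Casp1 was 3.44, 3.87, 2.63 and 2.61 in the same order, a range of 1.48 times against 2.41 times for its FPKM. Nlrp3 was 0.549, 0.635, 0.476 and 0.847, a range of 1.78 times against 4.91 times. The range was also narrower for Aim2 (2.29 against 5.06 times) and Pycard (2.41 against 3.40 times). The other direction was seen for Nlrp6, which spanned 6.01 times per macrophage marker against 1.97 times in FPKM. It was also seen for Il18 (3.86 against 1.21 times), Gsdmd (3.40 against 1.25 times), Il1b (2.99 against 1.35 times) and Il1rn (2.11 against 2.03 times). The marker sum in WD+7KC was itself 3.18 times that in CD. On this scale a gene with steady or falling FPKM therefore spans more, and a gene that rises with the sum spans less. These directions follow from the division and are not a separate result. Il1b was 7.49 in CD and 2.51 in WD+7KC on this scale, and Il1rn was 16.8 in CD and between 7.98 and 8.81 in the other 3 libraries.

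**Figure D4:**
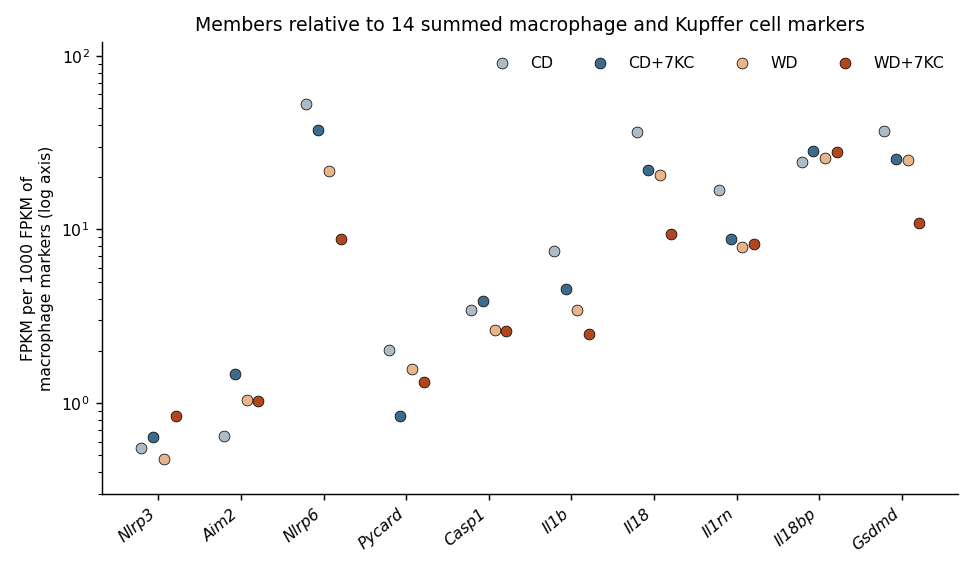
FPKM of each member per 1000 FPKM of 14 summed macrophage and Kupffer cell markers (logarithmic vertical axis), with 1 point per library for CD, CD+7KC, WD and WD+7KC. The 4 points of Il18bp lie between 24.6 and 28.2, while those of Nlrp6 spread from 52.8 in CD to 8.79 in WD+7KC.

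Other cell markers also differed between the libraries. The 5 monocyte markers summed to 21.4 (CD), 13.6 (CD+7KC), 18.9 (WD) and 30.0 FPKM (WD+7KC). The 5 endothelial markers summed to 49.4, 73.6, 39.5 and 109 FPKM, and 5 of 5 were past the fold between WD+7KC and WD, against 9.0% of all genes. The 7 hepatocyte markers summed to 54677 FPKM in CD and 43305 in WD+7KC, and 7 of 7 were lower in WD+7KC than in WD. Their median log2 ratio between WD+7KC and WD was -0.39, against 0.002 for all genes. With libraries scaled to equal sums of FPKM it was -0.18, against 0.21 for all genes. Its own size thus depended on the scaling, while it lay below the median of all genes under both. Single markers were not compared under that scaling, so the count of 7 of 7 is for the values as deposited. The 6 T and NK cell markers summed to 0.519 to 3.68 FPKM and the 4 B cell markers to 1.33 to 3.26 FPKM, all of them at low levels. Lists of neutrophil, cholangiocyte, stellate cell, intestinal, adipocyte and erythroid markers had medians between -0.39 and 0.29 between WD+7KC and WD.

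Of 18 other sensors and inflammasome regulators, 4 were above 1 and 1 below -1 between WD+7KC and WD, where 9.0% of all genes were past the fold, with a median log2 ratio of 0.55. The 4 were Nlrc4, Naip6, Mefv, which encodes the sensor pyrin, and Gbp5, an interferon-induced guanylate-binding protein. All 4 were low: Nlrc4 was at 0.145 FPKM in WD and 0.564 in WD+7KC, and Gbp5 at 0.599 and 1.34 FPKM. Gbp2, of the same family as Gbp5, was at 2.14 FPKM on CD, 3.21 on CD+7KC, 5.25 on WD and 8.49 on WD+7KC. Naip2, another sensor subunit, was at 0.713, 0.928, 1.80 and 2.22 FPKM, and the near-identical Naip copies make its values uncertain. Txnip, which can bind NLRP3, was at 77.1 FPKM in CD and 62.9 in CD+7KC, and lower in WD at 43.7 and WD+7KC at 49.2. Nlrp12, an NLR protein known to restrain inflammatory signalling, was the gene below -1, at 11.1 FPKM for CD, 7.05 for CD+7KC, 12.1 for WD and 4.03 for WD+7KC. Its WD+7KC value was 0.333 times its WD value (0.292 to 0.379), and its CD+7KC value 0.637 times its CD value (0.570 to 0.712).

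Among 10 other caspases and cell death genes, none was past the fold in either 7KC comparison. Ninj1, which ruptures the membrane after gasdermin pores form, was at 102 (CD), 105 (CD+7KC), 103 (WD) and 87.7 FPKM (WD+7KC). Of the other IL-1 family ligands, 3 were above 0. Il1a, which encodes IL-1α, was at 1.59 FPKM on CD, 2.76 on CD+7KC, 1.55 on WD and 3.39 on WD+7KC, so that both 7KC libraries were above both controls, by 1.74 times under CD (1.10 to 2.79) and 2.18 times under WD (1.38 to 3.56). Of 8 receptors, none was past the fold with 7KC. Il1rap, the shared co-receptor, was at 51.9 FPKM for CD, 48.7 for CD+7KC, 32.3 for WD and 22.1 for WD+7KC, and its WD+7KC value was 0.454 times its CD+7KC value (0.423 to 0.488). Il18r1 and Il18rap, the 2 chains of the IL-18 receptor, were below 0.15 FPKM in every library.

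Of all genes, 6.75% were past the fold between CD+7KC and CD and 9.0% between WD+7KC and WD, which is the background for the counts that follow. Downstream of the receptors, 10 signalling genes had a median log2 ratio of -0.10 between CD+7KC and CD and 0.02 between WD+7KC and WD, with none past the fold in either, and Irak1 had the highest level, at 20.5 to 27.8 FPKM. Of 11 NF-kB priming genes, 1 was above 1 between WD+7KC and WD and 1 below -1 between CD+7KC and CD, and both were Cd14, the lipopolysaccharide co-receptor. Cd14 was at 4.05 (CD), 1.68 (CD+7KC), 3.05 (WD) and 6.37 FPKM (WD+7KC). Of 12 IL-1 and IL-18 response genes, 11 could be compared between WD+7KC and WD and 10 between CD+7KC and CD. Of the 11, 2 were above 1, with a median of 0.63, and of the 10, 1 was below -1, with a median of -0.32. The 2 were Ifng and the chemokine gene Cxcl2, which was also the gene below -1 and was at 1.35 FPKM on CD, 0.516 on CD+7KC, 0.361 on WD and 1.22 on WD+7KC. Both were at low levels, and no counting interval is given here for them. The chemokine gene Ccl2 was at 14.5 FPKM for CD, 7.40 for CD+7KC, 6.52 for WD and 11.0 for WD+7KC, and Lcn2, an acute-phase gene, at 52.3, 57.8, 155 and 241 FPKM. Il6 was listed at 0 in all 4 libraries, and Ifng was listed at 0 in all but WD+7KC, where it was at 0.164 FPKM.

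**Figure D5:**
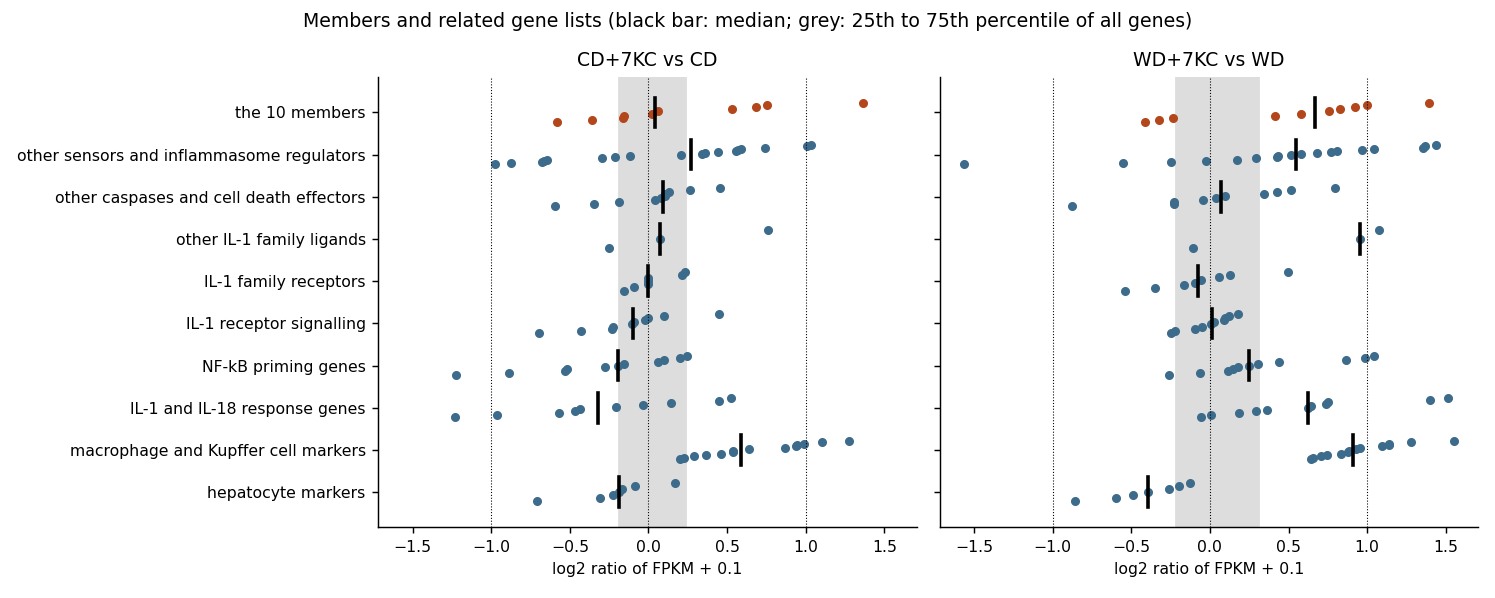
Log2 ratio of FPKM + 0.1 (horizontal axis) for the 10 members and for related gene lists (rows), between CD+7KC and CD (left) and WD+7KC and WD (right). Points are genes, black bars are list medians and the grey band runs from the lower to the upper quartile of all genes, with the members' median at 0.04 on the left and 0.67 on the right and that of the macrophage markers at 0.59 and 0.91.

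The genes whose 4 values followed those of a member most closely were found by the distance between centred log2 values over the 4 libraries, among 10686 genes, for the 7 members with a mean of at least 1 FPKM. For Il18bp the nearest was Syk, a kinase of immune receptors, at a distance of 0.03, followed by Cfp (properdin) and Inpp5d (a phosphatase of blood cells). For Il1rn they were Tnfrsf21, Prkcd and Chst12, for Casp1 Tnfrsf23, Mcm4 and Gbp9, and for Il1b Jak2, Sox5 and Rbm15b. For Nlrp6 the nearest was Hsd11b1, the hepatic enzyme that reactivates glucocorticoids, followed by Abhd3 and Ahcy. For Il18 they were Tbca, Mien1 and F2, and for Gsdmd Chmp6, Slc2a9 and Cwc15. Over only 4 libraries such nearness is common: 1508 genes lay within a distance of 0.2 of Il18 and 1165 of Gsdmd, against 17 of Il18bp, 16 of Casp1 and 10 of Il1rn. The distance was not scaled for spread, so a gene with a narrow range has more near genes by construction. These counts therefore do not compare how specific the patterns are.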

How the data were processed

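Total RNA of liver was made into stranded mRNA libraries and sequenced as 75-base single-end reads. Per the labels' processing notes, the authors used TopHat2 2.0.13, Bowtie2 2.2.3, SAMtools 0.1.19 and Cufflinks 2.2.1 on mm10, and the deposited values are FPKM, normalized to transcript length and mapped fragments. The annotation, the Cufflinks options and any pooling are not given in the sources used here. Low values in FPKM spaced as whole reads gave each library's depth: FPKM times mRNA length less 200 bases, from 9423 genes with a single transcript, put 91.6% to 93.5% of low values within 0.1 of a whole read. The 200 bases are the default mean fragment length of Cufflinks, and read numbers are estimates.

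Genes listed at 0 in both libraries of a comparison were left out, 0.1 was added, and log2 ratios above 1 or below -1 were called past the fold. Ratio intervals are exact Clopper-Pearson at 95%, computed also for all genes with a linked mRNA of over 400 bases, and level intervals are exact Poisson. Intervals of ratios of 2 ratios are normal on the log scale. They come from the same read numbers, except that those of the inhibitor to cytokine ratios take the shortest mRNA of Il1rn. No p-value was computed, with 1 library per group. Named genes were the 10 members, pathway genes past the fold with a mean of at least 1 FPKM, the highest-mean gene of each pathway list and the 3 nearest patterns of each member with a mean of at least 1 FPKM. Nlrc4, Naip6, Mefv, Gbp5, Cxcl2, Ifng, Il6, Ccl2, the IL-18 receptor chains, Numa1, Cdx2 and single cell markers fall outside that rule in part and were named after their values were seen. The members and lists were chosen with earlier results of these data known. The 6 alternatives were pseudocounts of 1 and 0.01, a filter of 1 FPKM, and 3 scalings (equal sums, upper quartile, median-ratio). Scripts ran in Python 3.11.15 with numpy 2.4.6, pandas 2.3.3, scipy 1.17.1 and matplotlib 3.10.9 and were tested on simulated data.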

Additional observations from a re-analysis of the deposited data

Results flagged for a closer look

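For 2 members the ratio that went with 7KC differed between the diets, by a counting interval of the ratio of the 2 ratios that excluded 1. For Nlrp6 the ratio under WD was 0.716 times that under CD (95% counting interval 0.607 to 0.846, and 0.810 times, 0.686 to 0.956, with libraries scaled to equal sums of FPKM). For Il1rn the ratio under WD was 2.48 times that under CD (1.73 to 3.55, from the longest of its mRNAs). Each rests on 4 libraries with 1 per diet, so the intervals cover counting error and not the variation between mice.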

How the results depend on the processing

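Genes past the fold between CD+7KC and CD, WD+7KC and WD, WD and CD, and WD+7KC and CD+7KC numbered 1059, 1418, 1511 and 2007. With a pseudocount of 1 they were 113, 189, 287 and 541, with 0.01 they were 2380, 2830, 2929 and 3582, and with a filter of at least 1 FPKM they were 287, 521, 602 and 1043. Members past the fold were 0, 0, 0 and 1 with a pseudocount of 1, and 0 in each of the first 3 comparisons with the filter. Between WD+7KC and WD they were 2 with a pseudocount of 0.01, 4 with equal sums, 2 with the upper quartile and 2 with the median ratio. The filter and the pseudocounts act on low values by construction. The members' median log2 ratio changed sign in 1 of 24 alternatives, between WD and CD with the filter (0.30 to -0.04), and stayed within the median counting interval of the members in all 24. Medians of the other gene lists changed sign in 18 of 453 alternatives, among them that of the other sensors between CD+7KC and CD with the filter (0.27 to -0.21). Il18 and Gsdmd changed sign between WD+7KC and CD+7KC (from -0.12 to 0.09), and the other members kept theirs in every setting that gave a value. The filter gave none for Nlrp3 and Aim2, nor for Pycard between CD+7KC and CD and between WD and CD. Equal sums shifted the median of all genes between WD+7KC and CD+7KC to 0.20 and the split of genes above 1 and below -1 from 1274 and 733 to 2007 and 719. Between WD+7KC and WD the higher share of calls was 69.0%, and 79.5% with the filter. No paired analysis was possible because each group has 1 library and the labels give no replicate numbers, and for the same reason no library could be left out. Nlrp3, Aim2, Pycard, Casp1 and Il1b rest on an estimated 6 to 40 reads per library, which limits their ratios most.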

Other observations

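The beta-globin gene Hbb-bs was listed at 0.00604 FPKM in CD and 0.00593 in CD+7KC, and at 13.5 in WD and 10.4 in WD+7KC. Beta-globin genes have near-identical copies, so the counts of this gene are uncertain. The erythroid enzyme gene Alas2 was at 86.5 FPKM on CD, 81.3 on CD+7KC, 30.9 on WD and 23.3 on WD+7KC. Hbb-bs was thus higher and Alas2 lower in both WD libraries than in both CD libraries, while the alpha-globin gene Hba-a1, at 89.8 (CD), 54.5 (CD+7KC), 146 (WD) and 70.0 FPKM (WD+7KC), overlapped between the diets, and Hba-a2 was at 0.042 FPKM in each library. These genes were named after their values were seen, and their part in the member values was not tested.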
